A study of Mus musculus with 6 samples.

Results

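The genes described here are the nuclear-encoded subunits of the respiratory chain, measured by total RNA sequencing in regulatory T cells (Treg cells, the Foxp3-expressing CD4 T cells that hold immune responses in check) purified from mouse tumours. They were chosen by name. A gene counts as a member when its Ensembl identifier belongs to a protein-coding gene of GENCODE M21 whose symbol marks it as a subunit of complex I (Nduf, without the Ndufaf assembly factors), complex II (Sdha to Sdhd), complex III (Uqcr), complex IV (Cox4 to Cox8) or complex V, the ATP synthase (Atp5). Of 54446 genes in the count tables, 86 met the rule, with 38 in complex I, 4 in complex II, 8 in complex III, 18 in complex IV and 18 in complex V. The symbol Atp5o carries 2 identifiers, so there are 85 distinct symbols.

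There were 3 libraries labelled Ythdf2 cKO, from Foxp3CreYthdf2fl/fl mice, and 3 control libraries, labelled WT Control, from Foxp3CreYthdf2fl/+ mice. Both groups therefore express Cre recombinase from the Foxp3 locus, and the controls too have 1 floxed allele of Ythdf2. All mice bore subcutaneous tumours of B16F10, a mouse melanoma line, and the cells were sorted as live CD45+ CD4+ GFP+ cells. The sample titles place replicates 2 and 3 labelled Ythdf2 cKO and control replicate 3 in cage 2, and replicate 1 labelled Ythdf2 cKO and control replicates 1 and 2 in cage 1. The labels do not state whether libraries come from separate animals, so each p-value reflects only how these samples vary, and that variation may be technical.

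Electrons from NADH enter the chain at complex I and those from succinate at complex II. Both pass through ubiquinone to complex III, then through cytochrome c to complex IV, which hands them to oxygen. Complexes I, III and IV pump protons as they work, and the ATP synthase uses the proton gradient to make ATP. A few core subunits are encoded in mitochondrial DNA, and the rest, described here, are made in the cytosol from nuclear genes. Treg cells in tumours are known for relying on oxidative metabolism. Promoters of these nuclear genes often carry sites for nuclear respiratory factor 1 (NRF1), for ETS factors such as GABPA and for YY1.

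The 4 promoters below show what such sites look like in members that the results below describe. Sdhb and Uqcr10 were higher in cage 2, Cox8a had the highest level per length in complex IV, and its muscle counterpart Cox8b had no read in any library. Each sequence runs 5′ to 3′ on the gene's strand, from 250 bases before to 50 after the start in RefSeq (GRCm38.p6). Capitals mark the NRF1 core (GCGCATGC, read as GCATGCGC on the other strand) and the ETS motif (CCGGAAG, read as CTTCCGG on the other strand).
Sdhb: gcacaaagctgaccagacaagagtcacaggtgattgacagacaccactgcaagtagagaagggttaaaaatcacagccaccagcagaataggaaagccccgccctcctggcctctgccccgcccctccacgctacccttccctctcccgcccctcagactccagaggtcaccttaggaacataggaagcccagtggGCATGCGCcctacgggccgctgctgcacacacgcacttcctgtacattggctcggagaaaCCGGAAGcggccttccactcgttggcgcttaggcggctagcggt
Uqcr10: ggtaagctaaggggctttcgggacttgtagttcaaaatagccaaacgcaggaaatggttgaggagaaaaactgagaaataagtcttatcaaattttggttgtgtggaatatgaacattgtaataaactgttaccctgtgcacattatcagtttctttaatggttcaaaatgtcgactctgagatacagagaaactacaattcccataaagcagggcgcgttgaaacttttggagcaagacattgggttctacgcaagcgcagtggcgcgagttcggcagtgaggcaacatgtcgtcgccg
Cox8a: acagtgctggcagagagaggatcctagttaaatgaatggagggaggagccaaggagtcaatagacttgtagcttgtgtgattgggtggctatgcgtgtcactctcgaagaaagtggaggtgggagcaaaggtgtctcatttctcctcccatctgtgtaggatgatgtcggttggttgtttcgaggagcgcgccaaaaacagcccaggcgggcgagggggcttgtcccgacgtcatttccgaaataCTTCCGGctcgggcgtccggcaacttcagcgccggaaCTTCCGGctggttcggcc
Cox8b: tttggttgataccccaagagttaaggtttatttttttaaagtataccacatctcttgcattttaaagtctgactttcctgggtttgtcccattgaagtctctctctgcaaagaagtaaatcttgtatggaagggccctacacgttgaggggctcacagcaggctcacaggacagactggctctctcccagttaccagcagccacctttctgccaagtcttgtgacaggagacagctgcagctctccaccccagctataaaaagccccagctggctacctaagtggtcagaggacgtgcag

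The Sdhb promoter (chr4:140961021-140961320, plus strand) held the NRF1 core on the other strand with its first base 54 before the start, and an ETS motif beginning 6 after it. Cox8a (chr19:7217567-7217866, minus strand) held 2 ETS motifs on the other strand, beginning 5 before and 32 after the start. None of the motifs lay in the windows of Uqcr10 (chr11:4704295-4704594, minus strand) or Cox8b (chr7:140900397-140900696, minus strand). RefSeq promoters were found for 67 members, with 72 promoters among them. The NRF1 core, searched on both strands, was in 10 of the 72, or 13.9%, against 5.31% of the promoters of all genes tested and 2.71% of all 32851 promoters of the same length. The YY1 motif AAGATGGCG was in 7, or 9.72%, against 3.1% and 1.4%. ETS motifs were in 16, or 22.2%, against 18% and 8.86%, so their share among members lay close to that among the tested genes. A match describes letters only and shows no binding.

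The cKO-labelled libraries held 5602053 to 9960861 gene counts and the controls 8923124 to 13602069. Ythdf2, the targeted gene, stood at 90.1, 104 and 104 CPM (counts scaled to a common library size with TMM, a trimmed mean of gene ratios) in the cKO-labelled libraries and at 124, 102 and 93.1 CPM in the controls. It differed by -0.10 on the log2 scale (standard error 0.16; edgeR quasi-likelihood test, adjusted p = 1). The counts cover all exons and the floxed exons are not named in the labels, so this check cannot settle the labels, and directions are given for the libraries as labelled. Foxp3 was read in all 6 libraries, at 325 to 608 CPM. Melanoma transcripts followed the cage: the mean over 15 melanoma markers was 5.98, 6.28 and 6.77 log2 CPM in cage 2 (cKO-labelled replicates 2 and 3 and control replicate 3), against 0.67, 3.21 and 3.66 in cage 1. In control replicate 3, 42.6% of gene counts were mitochondrial ribosomal RNA, against 9.97% to 19.2% elsewhere.

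Of the 86 members, 77 passed the filter on low counts and were tested, among 13172 genes in all: 37 in complex I, all 4 and all 8 in complexes II and III, 11 in complex IV and 17 in complex V. Together the members took 0.323%, 0.430% and 0.415% of the gene counts in the cKO-labelled libraries, and 0.429%, 0.400% and 0.310% in the controls. Once mitochondrially encoded genes were left out of the total, the shares were 0.361%, 0.533% and 0.523% in the cKO-labelled libraries and 0.493%, 0.454% and 0.565% in the controls. On that second scale the 3 libraries of cage 2 were the 3 highest, and the genotypes overlapped.

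Levels can be compared between genes only per length, here as CPM per kilobase of merged exon averaged over the 6 libraries. The tested members spanned from 1.28 for Ndufb2 to 112 for Atp5a1, with a median of 21.6. The median was highest in complex IV (38.4), followed by complex III (34.2), complex II (25.3), complex V (22.0) and complex I (16.4). In the catalytic head of complex V, Atp5a1, the alpha subunit, stood at 112 ± 15.1, Atp5b, the catalytic beta subunit, at 68.6 ± 18.8 and Atp5c1, the gamma subunit that turns inside the head, at 65.8 ± 12.6 (SD, n = 6 libraries). Atp5h, a subunit of the peripheral stalk, stood at 89.9 ± 11.9 and Atp5mpl, a small membrane subunit, at 77.3 ± 18.6, so both lay between Atp5a1 and Atp5b in order and overlapped with Atp5b in their spread. At the low end of complex V was Atp5s, a coupling factor that is not a structural subunit, at 1.54 ± 1.01.

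In complex III the small subunits Uqcrb (92.0 ± 9.87) and Uqcrh (59.5 ± 11.0), the hinge protein next to cytochrome c1, stood above the large core proteins Uqcrc1 (20.9 ± 2.22) and Uqcrc2 (19.1 ± 4.31). Complex IV was led by Cox8a (79.2 ± 14.7) and Cox7b (64.5 ± 14.5), whose spreads overlapped, and ended with Cox7c (8.95 ± 3.03). Cox8a and Cox7b were measured in the same libraries, and the difference between them was not tested. Ndufa13 (55.5 ± 8.75) and Ndufb11 (46.2 ± 6.65), both accessory subunits, led complex I. The order depends on the length used, for complexes as for genes. Per kilobase of the median protein-coding transcript, a choice made after the data were seen, the medians were 84.3 in complex III, 81.3 in complex V, 76.4 in complex IV, 45.1 in complex II and 38.4 in complex I. On that scale the median over members was 50.7 and Atp5mpl (216), Atp5h (211) and Uqcrc1 (162) stood highest, while Ndufb2 (3.00) stayed lowest. For Uqcrc1 the median transcript was 533 bases long, against 4135 bases of merged exon, so its place rests on that short length. For Ndufb2 those lengths were 2413 and 5628 bases, and its lowest place depends on them. In reads over all libraries Ndufb2 had 422 and Atp5s 176. Ranks were close between libraries, with Spearman's rho over the 77 members of 0.81 to 0.99 across the 15 pairs of libraries, which share gene lengths. In 14 members over 10% of 50-base windows also occur in another annotated gene (Atp5g2 38.4%, Uqcrb 25.4%, Cox7c 22.1%), so their counts are uncertain where such reads were split or dropped.

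**Figure D1:**
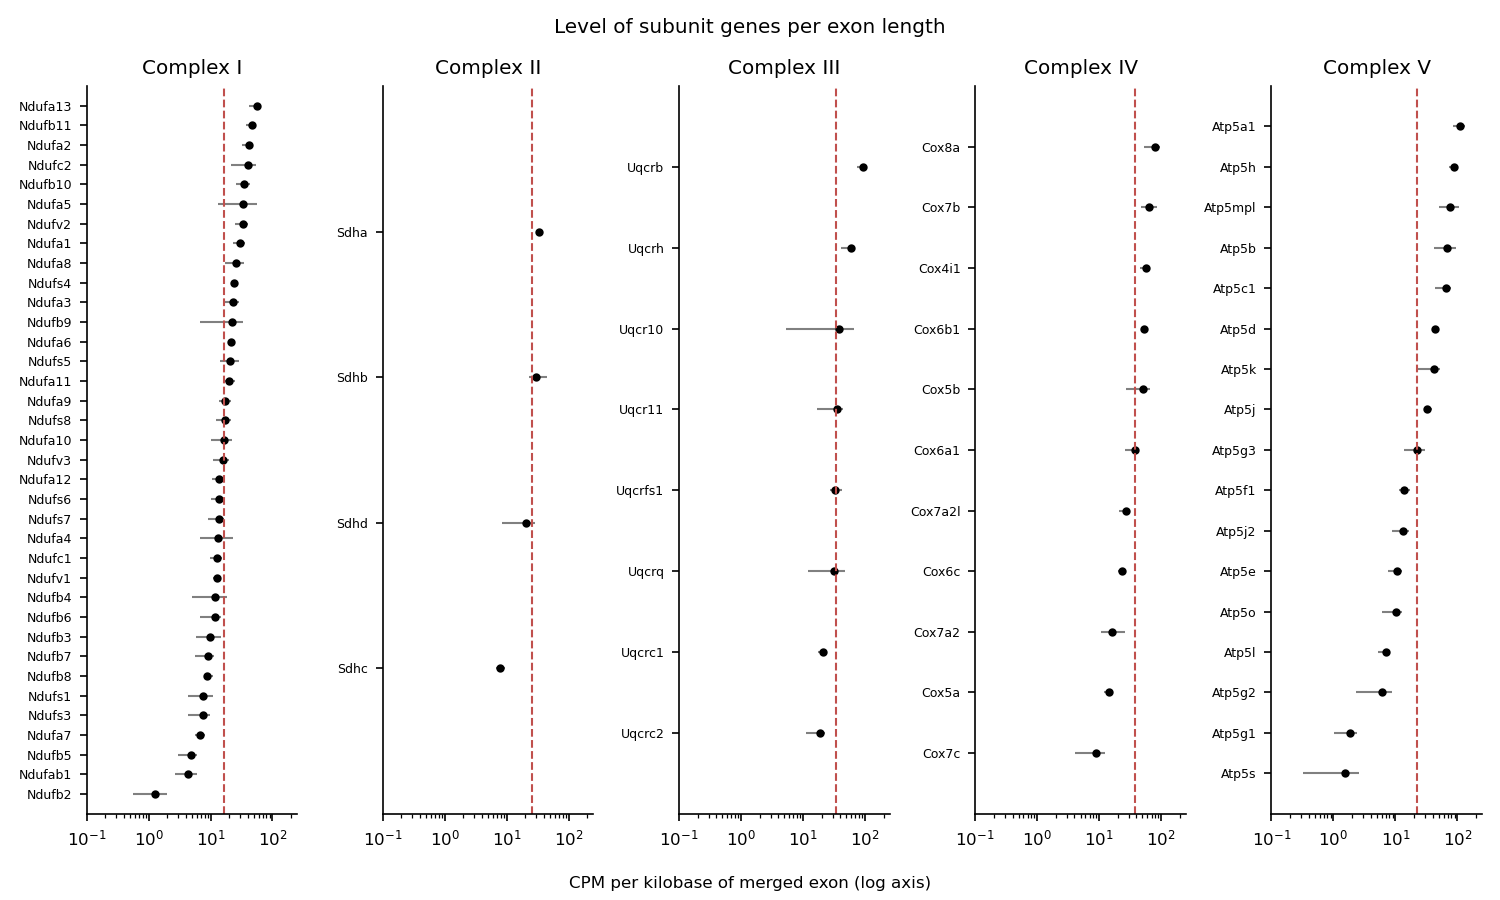
Level of the tested subunit genes, all but 1 of them drawn, in CPM per kilobase of merged exon (log axis), by complex; points are means over the 6 libraries, grey lines run from the lowest to the highest library, and dashed lines mark the median of the complex. On this scale complex I has the lowest median at 16.4 and complex IV the highest at 38.4.

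Several subunits of complex IV exist as a ubiquitous form and as a form restricted to certain tissues. In these libraries the ubiquitous form made most of the level per length, with Cox4i1 at 94.7% to 100%, Cox6a1 at 93.3% to 100% and Cox6b1 at 97.1% to 100% of its pair. Cox8b, found in heart and skeletal muscle, and Cox7b2 and Cox8c, known from testis, had 0 reads in every library, which allows up to 3 counts, or 0.203 to 0.491 CPM depending on the library (counting error only). Cox7a1, the muscle form of COX7A, had 0, 1 and 0 reads in the cKO-labelled libraries and 3, 2 and 0 in the controls. Cox6a2, the heart and muscle counterpart of Cox6a1, had 0, 22 and 2 reads in the cKO-labelled libraries and 0, 1 and 1 in the controls. Nearly all of its reads lay in cKO-labelled replicate 2, where it made 6.67% of the COX6A level per length. Of 6 markers of plasmacytoid dendritic cells, Siglech had 0, 94 and 59 reads in the cKO-labelled libraries and 19, 0 and 13 in the controls. The summed level of the 6, most of it from Runx2, was 271, 237 and 189 CPM in the cKO-labelled libraries. In the controls it was 161, 210 and 137 CPM. Over the 4 of these markers that passed the filter, the mean log2 CPM was 1.98, 4.39 and 4.18 in the cKO-labelled libraries. In the controls that mean was 3.42, 2.51 and 3.21. The sum was highest in cKO-labelled replicate 1 and the mean in cKO-labelled replicate 2. At 0 reads were 3, 0 and 0 of the 6 in the cKO-labelled libraries and 1, 3 and 1 in the controls. Markers of skeletal muscle summed to 0.328, 0.579 and 0.830 CPM in the cKO-labelled libraries and 0.707, 0.880 and 5.84 CPM in the controls. The part of either cell type in the result was not tested.

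Cox4i2 and Ndufa4l2, forms induced by low oxygen and known from pericytes, had most of their reads in a single library. Cox4i2 had 0, 0 and 24 reads in the cKO-labelled libraries and 0, 0 and 7 in the controls. Ndufa4l2 had 0, 2 and 24 reads in the cKO-labelled libraries and 0, 0 and 6 in the controls. In cKO-labelled replicate 3, Cox4i2 reached 5.29% of the COX4 level per length and Ndufa4l2 13.2% of that of Ndufa4 and Ndufa4l2 together. Both were highest in that library and next in control replicate 3, both of cage 2. The summed level of 8 mural cell markers, a list chosen after values were seen, was 0, 4.54 and 343 CPM in the cKO-labelled libraries and 0.618, 1.89 and 18.6 CPM in the controls, with Rgs5 at 1306 reads and Acta2 at 1045 reads in cKO-labelled replicate 3. The number of these markers at 0 reads was 8, 4 and 0 in the cKO-labelled libraries and 4, 3 and 1 in the controls. Their part in the result was not tested. Cox6b2, known from testis, had 0, 0 and 18 reads in the cKO-labelled libraries and 5, 4 and 0 in the controls.

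The c ring of the ATP synthase is built from 1 mature protein that is encoded by 3 genes. Atp5g3 supplied 69.5% to 80.2% of their summed level per length, Atp5g2 13.8% to 24.6% and Atp5g1 4.89% to 7.81%. These shares depend on merged exon lengths of 2181, 1675 and 4912 bases in that order. Mean CPM was 9.11 in the cKO-labelled libraries and 9.09 in the controls for Atp5g1, and 8.12 and 12.3 for Atp5g2. Of the 50-base windows of Atp5g2, 38.4% also occur in another annotated gene, so its share is uncertain. The Atp5g2 share was 13.8%, 18.8% and 18.3% in the cKO-labelled libraries and 24.6%, 22.3% and 21.5% in the controls. The genotypes did not overlap in this share, which was picked out after its values were seen and was not tested. The CPM values of Atp5g2 did overlap (3.93, 9.84 and 10.6 in the cKO-labelled libraries and 12.4, 9.74 and 14.7 in the controls). The second identifier of Atp5o, all of whose exon bases also belong to other annotated genes on the same strand, had 0 reads in every library.

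The design asks what changes in Treg cells when Ythdf2 is deleted. Ythdf2 binds mRNAs carrying N6-methyladenosine and promotes their decay. No subunit gene passed the test between the cKO-labelled libraries and the controls: 0 of 77 members had an adjusted p under 0.05 in edgeR, where the background over all genes was 0% (0 of 13172). With DESeq2 and limma-voom the count was also 0. At an unadjusted p under 0.05 there was 1 member with each of the 3 tools, against 213 genes, or 1.62%, over all genes in edgeR. Fold changes lay below 0 for 59 of the 77 members and above 0 for 18; the median log2 value was -0.12 against -0.0049 over all genes. The median was -0.17 in complex I, -0.075 in complex II, -0.068 in complex III, -0.095 in complex IV and -0.098 in complex V. In bulk RNA, fewer cells of a type and less RNA per cell cannot be told apart.

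That median moved with 1 library. Set against each gene's mean over the 6 libraries, the median member stood at -0.40, 0.14 and 0.11 log2 units in the cKO-labelled libraries and at 0.066, -0.0035 and 0.22 in the controls. The cKO-labelled replicate 1, of cage 1, was low in every complex, from -0.24 in complex II to -0.54 in complex V. It was the lowest library for 50 of 77 members (64.9%, against 33.0% of all genes). It also had the fewest gene counts (5602053, against 8923124 to 13602069 elsewhere) and the fewest genes detected (14758, against 18395 to 20624 elsewhere). The part of sequencing depth in the result was not tested. Control replicate 3, of cage 2, was the highest for 34 members (44.2%, against 22.2% of all genes). These are also the libraries with the lowest and the highest melanoma marker level. With the mean melanoma marker level as a covariate the median over members was -0.13 (all genes -0.034) and 0 members passed. Beyond that fit, the part of tumour RNA in the result was not tested. Without cKO-labelled replicate 1 the median over members was 0.0057, and without both that library and control replicate 3 it was 0.12. In that last comparison of 2 against 2 libraries, where genotype and cage coincide, 520 genes passed the threshold and 0 of them were members. Scaled to total gene counts alone, the median was 0.043 while that of all genes moved to 0.14, so the members' median minus that of all genes was -0.10, against -0.11 with TMM. That difference was -0.030 with GC content and exon length correction (median over members -0.049), -0.011 without the low-count filter and 0.012 without cKO-labelled replicate 1.

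**Figure D2:**
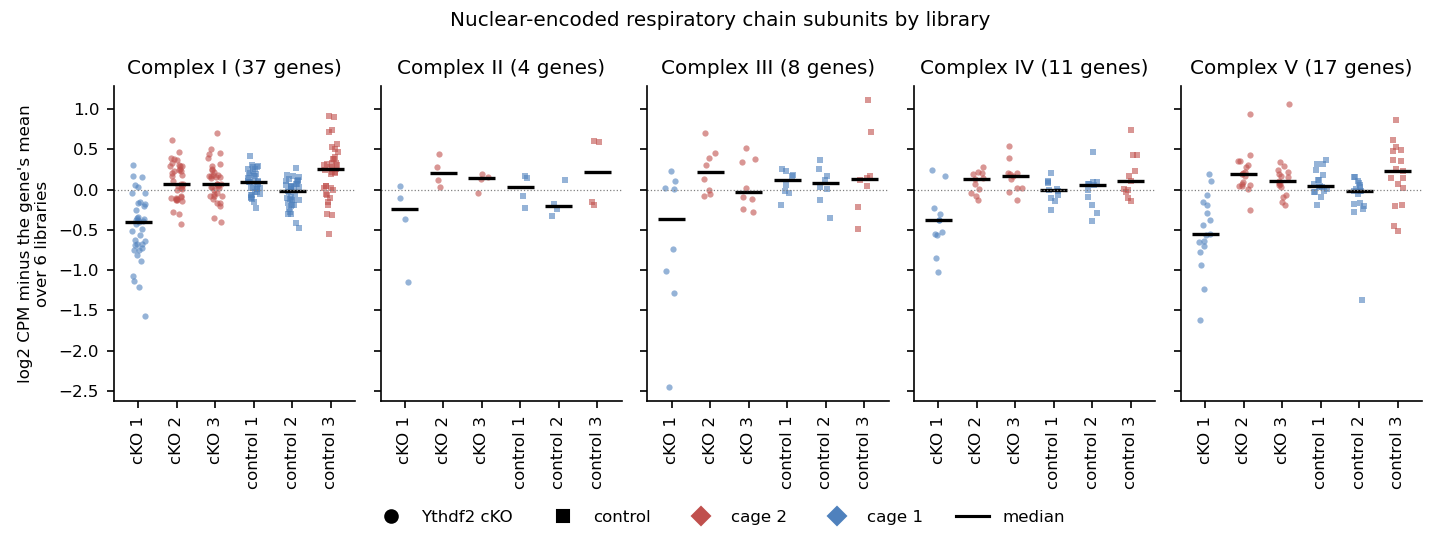
Log2 CPM of each tested subunit gene minus the gene's mean over 6 libraries, by complex and library; circles are cKO-labelled libraries, squares controls, red cage 2, blue cage 1, and black lines medians. The cKO-labelled replicate 1 has the lowest median in all 5 complexes, at -0.40 over all members.

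The genes whose groups did not overlap can be named. Groups did not overlap, with the cKO-labelled libraries lower, for 4 of 77 members (5.19%, against 4.22% of all genes tested), and with them higher for 2 (2.60%, against 3.4%). Both shares lie near the background. Ndufa3 (chromosome 7, 3617373 to 3620327, mm10), an accessory subunit of complex I, had 17.2, 18.6 and 20.1 CPM in the cKO-labelled libraries and 27.6, 25.7 and 29.7 CPM in the controls. The difference was -0.57 on the log2 scale (standard error 0.21, edgeR unadjusted p = 0.028, adjusted p = 1), -0.62 within cage 1 and -0.61 within cage 2. It kept its sign in every alternative, from -0.62 to -0.41, and was the member with an unadjusted p under 0.05.

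Ndufa13, an accessory subunit also known as GRIM-19, had 52.7, 70.7 and 59.5 CPM in the cKO-labelled libraries and 78.1, 75.2 and 80.0 CPM in the controls (log2 fold change -0.35, standard error 0.16). The overlap of its exons with genes on the opposite strand, described above, makes these counts uncertain. Ndufv1, which binds NADH and the flavin at the entry of complex I, had 29.3, 30.1 and 31.0 CPM in the cKO-labelled libraries and 35.2, 32.4 and 39.3 CPM in the controls (-0.24, standard error 0.18). All 7 catalytic core subunits of complex I lay below 0 (median log2 fold change -0.19), and 0 of the 7 passed the test. Cox4i1, the ubiquitous form of the regulatory subunit COX4, had 69.8, 78.7 and 87.7 CPM in the cKO-labelled libraries and 91.5, 92.7 and 102 CPM in the controls (-0.28, standard error 0.15). None of these passed the test (edgeR adjusted p = 1 for each).

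In the other direction, Sdhc, a membrane anchor of complex II, had 25.9, 30.6 and 27.5 CPM in the cKO-labelled libraries and 23.7, 22.2 and 21.9 CPM in the controls (log2 fold change 0.31, standard error 0.20). For the catalytic subunit Sdha, which oxidises succinate, the groups overlapped. It stood at 133 ± 6.03 CPM in the cKO-labelled libraries and 141 ± 15.5 CPM in the controls (SD, n = 3 each). Cox6b1, which links the monomers of the complex IV dimer, had 43.9, 35.9 and 40.5 CPM in the cKO-labelled libraries and 33.5, 34.8 and 34.2 CPM in the controls (0.23, standard error 0.17). Neither Sdhc nor Cox6b1 passed the test. Among the others with the smallest p in their complex were Ndufa10 (-0.36), Uqcrfs1, the Rieske iron-sulphur protein (0.28), Uqcrc2 (-0.29), Atp5j2 (0.35) and Atp5g2 (-0.59), each with an adjusted p of 1. The most negative fitted value among the 77 members was that of Uqcr10, at -0.71 with a standard error of 0.68, whose groups overlapped.

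Within the cages the genotypes could be compared only as differences of mean log2 CPM, with no test. In cage 1, with 1 cKO-labelled library against 2 controls, 65 of 77 members lay below 0, with a median of -0.50 (all genes -0.081). In cage 2, with 2 cKO-labelled libraries against 1 control, 46 lay below and 31 above, with a median of -0.088 (all genes -0.011). With cage as a term in the fit the median was -0.27 and 0 members passed. The spread of single members in cage 1 was wide: Uqcr10 stood at -2.76 in cage 1 and -0.75 in cage 2, and Ndufb9 at -1.56 and 0.04.

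**Figure D3:**
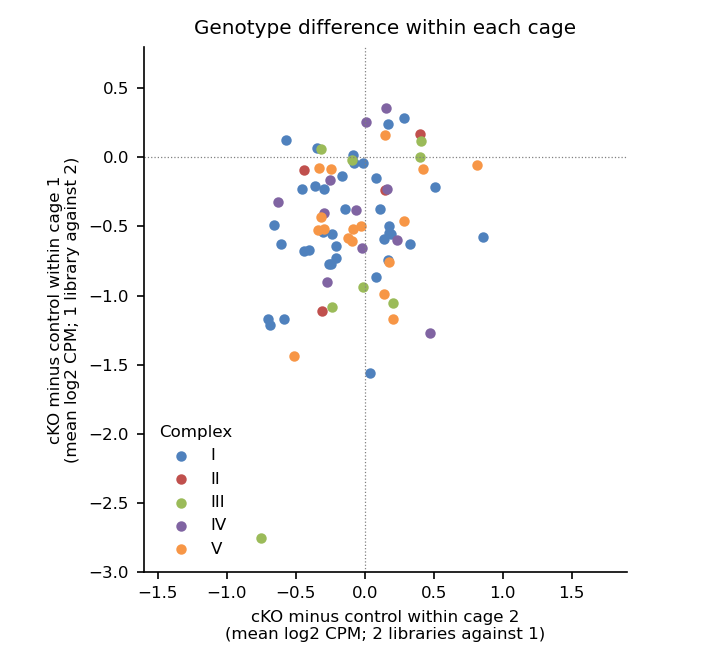
Difference in mean log2 CPM between cKO-labelled libraries and controls for each tested subunit gene, within cage 2 (horizontal axis) and within cage 1 (vertical axis), coloured by complex. Most points lie below 0 on the vertical axis, where the median is -0.50, and on both sides of 0 on the horizontal axis, where it is -0.088; the lowest point is Uqcr10.

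Between the cages, by contrast, subunit genes passed the test, and in edgeR each one that did was higher in cage 2. With genotype as a term, 12 of 77 members were higher in cage 2 (15.6%, against 7.83% of all genes tested) and 0 were lower (against 3.68%). DESeq2 called 16 higher and 1 lower, Uqcrh, and limma-voom 9 higher and 0 lower. The calls came from all 5 complexes: Ndufs1, Ndufa5, Ndufb4 and Ndufa4 in complex I, Sdhb and Sdhd in complex II, Uqcrq and Uqcr10 in complex III, Cox7b in complex IV, and Atp5b, Atp5g3 and Atp5mpl in complex V. The shares called were 10.8% in complex I, 50% of 4 genes in complex II and 25% of 8 genes in complex III. They were 9.09% in complex IV and 17.6% in complex V, against 7.83% of all genes tested. Those of complexes I and IV lie near the background. Over all 77 members 60 had a log2 fold change above 0, with a median of 0.33 against 0.013 over all genes. Medians by complex ran from 0.20 in complex III and 0.30 in complex I to 0.33 in complex IV, 0.38 in complex II and 0.43 in complex V. The cages did not overlap for 20 members with cage 2 higher (26.0%, against 15.1% of all genes) and for 2 with cage 2 lower (2.60%, against 12.2%).

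These counts stand beside large differences in cell content. Of the 15 melanoma markers 14 passed as higher in cage 2 (median log2 fold change 4.26), as did 5 of 10 macrophage markers. Of 10 Treg markers 7 passed as lower in cage 2, with a median of -0.64, Foxp3 among them at -0.65. The part of tumour RNA in the subunit result was not tested, and with 3 libraries a cage the cage cannot be told apart from what else differed between those libraries. Within genotype, with no test, the median over members between cages was 0.53 among the cKO-labelled libraries (65 of 77 above 0, all genes 0.049). Among the controls it was 0.17 (52 above 0, all genes -0.019). The former rests on cKO-labelled replicate 1 as the only library of cage 1. The latter rests on control replicate 3 as the only library of cage 2.

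The number of calls depends on single libraries and on scaling. There were 3 calls without cKO-labelled replicate 1 (Sdhb, Ndufa4 and Uqcrq), 8 without cKO-labelled replicate 2 and 4 without cKO-labelled replicate 3. The calls were Atp5b and Uqcrq without control replicate 2, and without control replicate 1 or control replicate 3 there were 10, of which 6 were shared with the full set in the last case. Over all genes those fits called 681 to 1316, against 1516 with all libraries. With cage as the only term in the fit 0 members passed, of 849 genes called. Scaled to total gene counts 0 members passed, of 1378 genes called, with a median over members of -0.0090 and over all genes of -0.32, a difference of 0.31 between members and all genes, as in the TMM fit (0.32). That scaling includes the mitochondrial RNA of control replicate 3. Scaled to total counts once mitochondrially encoded, ribosomal RNA and haemoglobin genes were left out, an alternative added after the data were seen, 13 passed, the same 12 among them, of 1333 genes called.

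**Figure D4:**
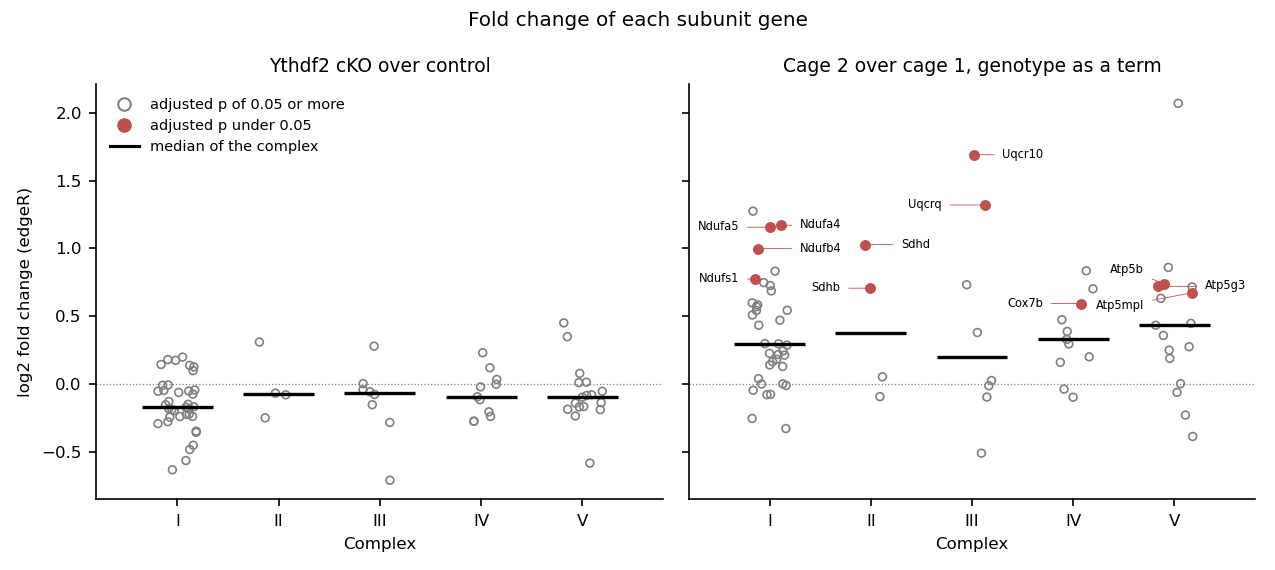
Log2 fold change of each tested subunit gene by complex, for cKO-labelled libraries over controls (left) and for cage 2 over cage 1 with genotype as a term (right); filled points have an edgeR adjusted p under 0.05 and black lines are medians. No point is filled on the left, and 12 are filled on the right, all above 0.

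In complex I the call among the catalytic core was Ndufs1, the large iron-sulphur subunit. It had 71.3 and 62.6 CPM in cKO-labelled replicates 2 and 3 and 88.4 CPM in control replicate 3 (cage 2), against 35.5 CPM in cKO-labelled replicate 1 and 57.3 and 55.9 CPM in control replicates 1 and 2 (cage 1). The cages did not overlap (log2 fold change 0.77, standard error 0.16, edgeR adjusted p = 0.017). The other core subunits did not pass. Ndufa4, a subunit first assigned to complex I and now counted with complex IV, had 19.7, 20.7 and 31.9 CPM in cage 2 and 9.50, 14.3 and 12.5 CPM in cage 1 (1.17, standard error 0.25, adjusted p = 0.019). Among the accessory subunits, Ndufa5 (1.16, adjusted p = 0.020) and Ndufb4 (1.00, adjusted p = 0.043) passed, and for both the cages overlapped. Their lowest value was that of cKO-labelled replicate 1, at 13.4 CPM for Ndufa5 and 9.66 CPM for Ndufb4.

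Complex II, the enzyme shared with the citric acid cycle, had 2 of its 4 subunits pass (50%, against 7.83% of all genes tested). Sdhb, its iron-sulphur subunit (chromosome 4, 140961203 to 140979193), had 71.5, 75.3 and 99.4 CPM in cage 2, in the order of libraries used above, and 50.8, 56.0 and 52.4 CPM in cage 1. Cage 2 was higher by 0.71 on the log2 scale (standard error 0.15, adjusted p = 0.020). Sdhd, a membrane anchor, had 32.0, 26.1 and 35.8 CPM in cage 2 and 10.5, 26.4 and 19.8 CPM in cage 1 (1.03, standard error 0.28, adjusted p = 0.048). Here the cages overlapped by a small margin, since control replicate 1 stood just above cKO-labelled replicate 3. Its partner anchor Sdhc (0.05, standard error 0.22) and the catalytic Sdha (-0.09, standard error 0.14) did not pass.

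Complex III held both the largest called changes and a gene with the opposite sign. Uqcrq, the ubiquinone-binding protein subunit (chromosome 11, 53427922 to 53430831), had 73.3, 76.6 and 88.4 CPM in cage 2 and 21.9, 52.0 and 42.0 CPM in cage 1. It was 2.50-fold higher in cage 2 (log2 fold change 1.32, standard error 0.23, adjusted p = 0.0069), and it passed in 15 of 17 alternatives, with the lowest value 0.91 without cKO-labelled replicate 1. Uqcr10, a small accessory subunit (chromosome 11, 4701973 to 4704342), had 29.1, 18.2 and 38.8 CPM in cage 2 and 3.11, 21.4 and 23.1 CPM in cage 1. Its log2 fold change of 1.69 (standard error 0.47, adjusted p = 0.049) rested on the 19 reads of cKO-labelled replicate 1: without that library it was 0.80 and did not pass. Uqcrh had 69.7, 66.6 and 51.6 CPM in cage 2 and 84.8, 82.5 and 86.4 CPM in cage 1, so the cages did not overlap. Its log2 fold change was -0.51 (standard error 0.16) and did not pass in edgeR (adjusted p = 0.069), while DESeq2 called it (-0.49, adjusted p = 0.032).

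In complex IV, Cox7b (on the X chromosome) had 87.5, 86.3 and 103 CPM in cage 2 and 59.1, 75.5 and 58.3 CPM in cage 1 (log2 fold change 0.59, standard error 0.16, adjusted p = 0.041). Cox5b, a zinc-binding subunit, had the next lowest adjusted p of the complex without passing in edgeR (0.70, adjusted p = 0.059), and Cox4i1 stood at 0.20. Cox7a2 stood at 0.83 (adjusted p = 0.084) and its relative Cox7a2l, which joins complexes III and IV into supercomplexes, stood at 0.33 (standard error 0.19).

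In complex V, Atp5b, the catalytic subunit (chromosome 10, 128083273 to 128090391), had 343, 298 and 405 CPM in cage 2 and 179, 287 and 232 CPM in cage 1. Cage 2 was higher by 0.74 on the log2 scale (standard error 0.14, adjusted p = 0.011), and Atp5b passed in 14 of 17 alternatives. Its partner in the head, Atp5a1, stood at 0.19 with a standard error of 0.15 and did not pass. Atp5g3, the main c-ring gene, had 49.9, 56.9 and 65.3 CPM in cage 2 and 29.8, 45.6 and 40.3 CPM in cage 1 (0.72, standard error 0.17, adjusted p = 0.031). Atp5mpl, a small membrane subunit, had 103, 103 and 128 CPM in cage 2 and 62.1, 85.9 and 82.1 CPM in cage 1 (0.67, standard error 0.13, adjusted p = 0.014). The largest fitted value of any member, 2.07 for Atp5s, came with a standard error of 0.82 at 0.655 to 5.29 CPM and did not pass. Whether members within a complex differ from one another in their cage difference was not tested.

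**Figure D5:**
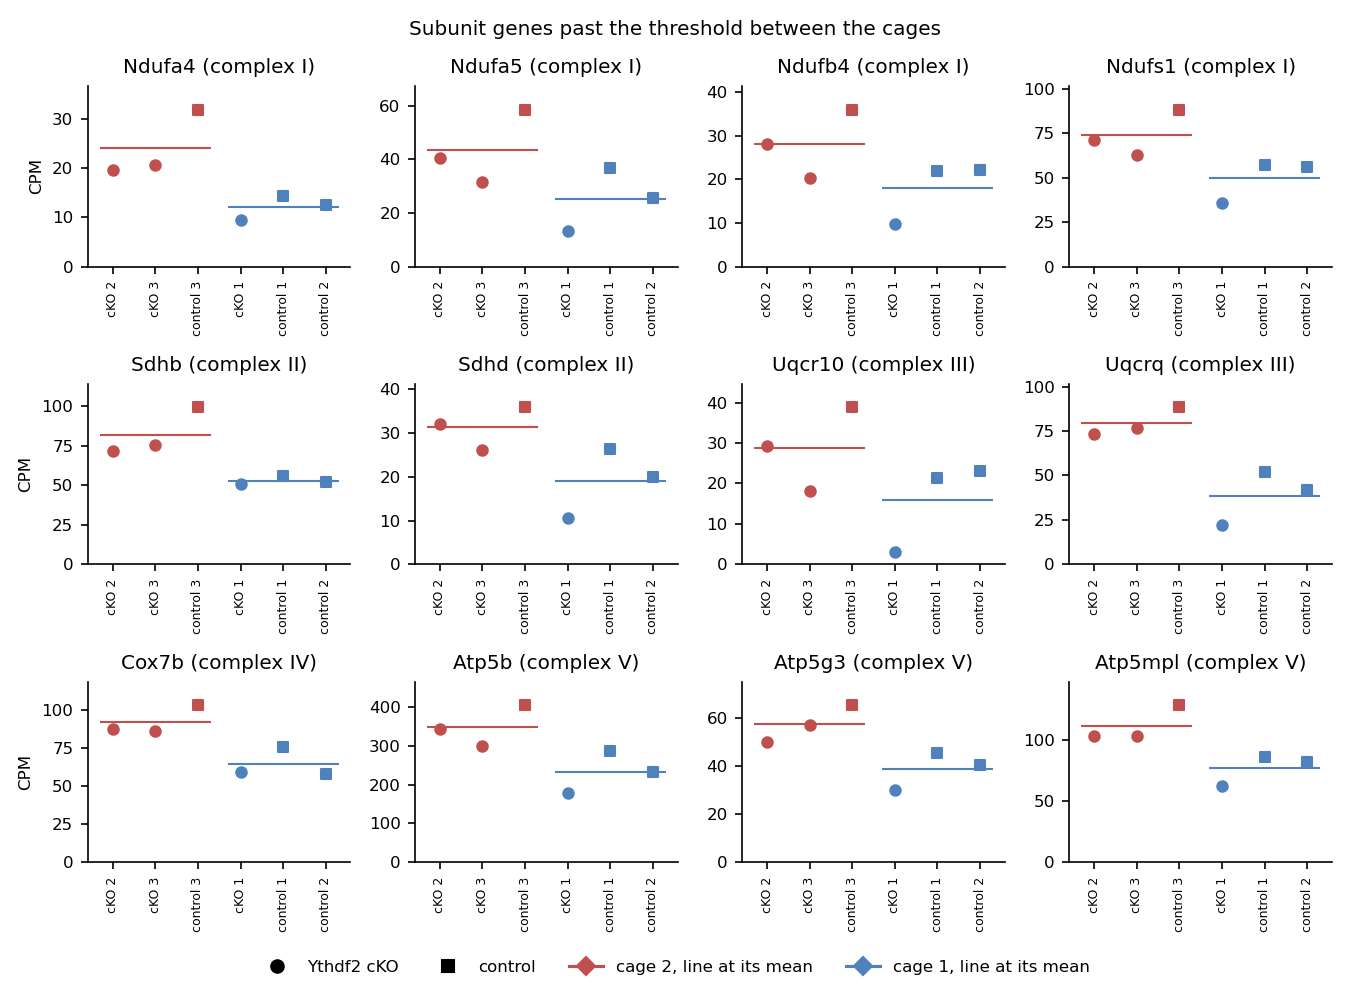
CPM per library of the 12 subunit genes with an edgeR adjusted p under 0.05 between the cages, with cage 2 (red) left of cage 1 (blue); circles are cKO-labelled libraries, squares controls, and lines cage means. In 8 of the 12 all libraries of cage 2 lie above all libraries of cage 1, and in Uqcr10 cKO-labelled replicate 1 stands apart at 3.11 CPM.

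Whether the genotype difference itself differed between the cages was tested with an interaction term, with 2 residual degrees of freedom among the 6 libraries. Of 77 members 0 passed in edgeR, against 0.0456% of all genes (6 of 13172). DESeq2 and limma-voom also called 0, and an unadjusted p under 0.05 was found for 12, 6 and 5 members with edgeR, DESeq2 and limma-voom. In edgeR that is 15.6% of members against 14.3% of all genes, a share near the background. The largest value was that of Uqcr10, at 2.12 on the log2 scale (edgeR adjusted p = 0.23), and the lowest that of Ndufs6 at -0.70.

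Neighbouring gene lists were read from the same fits, chosen with earlier results of these data known. None of their genes passed between the genotypes. Between the cages, 7.83% of all genes tested passed as higher in cage 2. Of the 13 subunits encoded in mitochondrial DNA 9 were tested and 6 (66.7%) passed as higher in cage 2. Their median log2 fold change over the 9 was 1.79. For example mt-Co1, the catalytic core of complex IV, had 3683, 4106 and 12127 CPM in cage 2 and 1745, 2455 and 2054 CPM in cage 1. Cyc1, the cytochrome c1 of complex III, passed (0.95, adjusted p = 0.043), while cytochrome c itself, Cycs, did not (0.30). Of 17 genes of the citric acid cycle and pyruvate dehydrogenase 3 (17.6%) passed as higher in cage 2. They were Idh2 (2.38, adjusted p = 0.00061), Suclg2 (1.43, adjusted p = 0.021) and Dlat (0.71, adjusted p = 0.045). Of 15 regulators of mitochondrial biogenesis 1 (6.67%) passed, Ppargc1a, a coactivator of NRF1-driven transcription. It had 47.6, 37.9 and 84.1 CPM in cage 2 and 0.655, 5.30 and 4.87 CPM in cage 1 (log2 fold change 4.55). The median over the 15 melanoma markers was 4.26. The part of tumour RNA in the difference of Ppargc1a was not tested. Nrf1 and Gabpa, the factors whose motifs are described above, stood at -0.09 and -0.08 and did not pass. Of 77 mitochondrial ribosomal protein genes tested 1 (1.3%) passed, Mrpl12 (1.26, adjusted p = 0.023), and the median over the 77 was 0.21. Of 14, 4, 6, 16 and 5 assembly factors tested for complexes I, II, III, IV and V, 0 passed.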

How the data were processed

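RNA from sorted tumour Treg cells was made into 6 stranded total RNA libraries, 3 per genotype. The deposited values are raw counts per gene, 1 table per library, made on mm10. Trimmomatic 0.39, HISAT2 2.1.0, HTSeq and DESeq2 are named in the submitters' processing notes. For strand and annotation release the sources used here give nothing. Rows that name no gene were left out: 24.6% to 35.8% of reads hit no feature, 1.43% to 2.21% were ambiguous and 9.22% to 12.9% aligned to several places. Identifiers were matched to GENCODE M21 for 54409 of 54446 genes.

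Genes were filtered with filterByExpr (minimum count 10, minimum total 15), scaled by TMM and tested with edgeR 4.0.16 (quasi-likelihood, R 4.3.3), with Benjamini-Hochberg adjustment over 13172 genes and a threshold of 0.05. The genotype fit had the group alone, the cage fit group and cage, and another fit their interaction. Log2 CPM used a prior count of 2. DESeq2 1.42.0 and limma-voom 3.58.1 served as alternatives, mgcv 1.9.3 fitted GC and length trends, and Python 3.11.15 made the summaries. The fits were tested on simulated data. All 6 libraries differed beyond sampling noise. Intervals and floors cover counting error only.

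The members, lists and tests were chosen with earlier results of these data known. Genes named in the text are the Sdh genes, tissue-restricted isoforms and their partners, the highest and lowest levels and the smallest p-values per complex and comparison, and the extreme fold changes. Others, the subunit roles, the mural, dendritic and muscle markers, and the 8-letter NRF1 core were chosen after values were seen. The values of 1 member are not reported here by name.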

Additional observations from a re-analysis of the deposited data

How the results depend on the processing

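Between the genotypes 0 members passed in any alternative run. The median over members was -0.12 and changed sign when scaled to total gene counts (0.043) and without both control replicate 3 and cKO-labelled replicate 1 (0.12). Leaving out 1 library at a time gave -0.22 to 0.0057, and within cage 1 it was -0.50. With GC and length correction it was -0.049. Between the cages, 12 members passed, against 0 with cage as the only term, 0 with total gene counts and 2 to 10 with 1 library left out. The median of 0.33 became 0.46 with GC and length correction, -0.0090 with total gene counts, 0.17 to 0.52 with 1 library left out, 0.53 within the cKO-labelled libraries and 0.17 within controls. The cause of these shifts was not tested. For the interaction 1 member, Uqcr10, passed without the low-count filter, where 450 genes were called in all, against 6 with it. The median level per length of 21.6 became 50.7 with the coding transcript length, an alternative added after the data were seen, as was the scaling to total counts of the other genes.

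The labels do not say whether replicate numbers pair the samples. The correlations of deviations between same-numbered libraries were 0.41, -0.24 and 0.55 for replicates 1, 2 and 3. Replicates 1 share cage 1 and replicates 3 share cage 2, while replicates 2 lie in different cages. These values therefore cannot tell pairing from cage. With the replicate number as a block the median between genotypes was -0.16 and 0 members passed. Both-ends removal could not be run for the cage, since genotype and cage then coincide. With 3 libraries a group and members at 3.11 CPM or less in single libraries, such as Uqcr10 and Atp5s, counting error limits the precision of low members.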
